A study of Mus musculus with 24 samples.

Results

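The mRNAs of the cytosolic ribosomal proteins were examined in primary mouse brite adipocytes after knockdown of the long noncoding RNA Ctcflos. Members were chosen by name: gene symbols made of Rpl or Rps and a number, with or without a closing a or x, together with Rplp0, Rplp1, Rplp2 and Rpsa. Each symbol was represented by its RefSeq mRNA entry with the highest mean over all libraries, which gave 76 members, 30 of the small (40S) and 46 of the large (60S) subunit, among 168326 transcript entries. The rule used no comparison between groups. A total of 687 entries carried these 76 symbols.

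Preadipocytes came from the stromal-vascular fraction of inguinal white adipose tissue of 129SvEv mice, received the induction mix over 2 days and then 1 day of differentiation, always with rosiglitazone, which drives browning. They were then reverse transfected with 50 nM of an LNA gapmer, an antisense oligonucleotide that leads to cleavage of its target RNA, directed at Ctcflos (KD) or at no transcript (NC), and were collected after 24 h or 72 h. Each of the 4 combinations of oligonucleotide and time, named such as KD 24 h, had 6 libraries. All cells therefore carried an oligonucleotide and had received rosiglitazone. The study describes its transcriptome samples as biological replicates, and neither it nor the labels say whether the libraries of a group came from separate mice or from separate cultures of the same cells, so the p-values measure the spread between these libraries.

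A ribosome joins a 40S subunit, which reads the mRNA, with a 60S subunit, which links amino acids and releases the chain through a tunnel. Cells make the ribosomal proteins in matched amounts from many unlinked genes, and most of their mRNAs start with a run of pyrimidines, the 5′ terminal oligopyrimidine tract, through which the kinase complex mTORC1 and the RNA-binding protein LARP1 set their translation. These genes have also left many processed pseudogenes, intronless copies in which short sequencing reads can be placed in error.

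The bases around the annotated start are shown for 10 members that recur below, to let the tract be seen. RefSeq start windows on GRCm38.p6 were found for 56 of the 76 members. Each window has 10 bases before the start and 20 from it, written on the coding strand. Capitals mark a run of at least 5 C or T that opens with a C no more than 5 bases from the start.
Rpl15: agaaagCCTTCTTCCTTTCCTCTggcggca
Rps15a: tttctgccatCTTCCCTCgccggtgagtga
Rps6: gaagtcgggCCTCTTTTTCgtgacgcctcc
Rplp2: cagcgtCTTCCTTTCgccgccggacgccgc
Rpl13a: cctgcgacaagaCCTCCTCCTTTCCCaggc
Rpl31: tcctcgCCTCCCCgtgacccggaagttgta
Rps9: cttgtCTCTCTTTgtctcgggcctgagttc
Rpl5: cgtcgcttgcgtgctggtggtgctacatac
Rpl4: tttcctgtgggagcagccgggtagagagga
Rplp0: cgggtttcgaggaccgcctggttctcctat

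These windows lie at chr14:18270967-18270996 (Rpl15, minus strand), chr7:118116128-118116157 (Rps15a, minus), chr4:86857348-86857377 (Rps6, minus), chr7:141447641-141447670 (Rplp2, plus), chr7:45128726-45128755 (Rpl13a, minus), chr1:39367841-39367870 (Rpl31, plus), chr7:3704031-3704060 (Rps9, plus), chr5:107900518-107900547 (Rpl5, plus), chr9:64173377-64173406 (Rpl4, plus) and chr5:115559457-115559486 (Rplp0, plus). Such a run was present in 27 of the 56 members (48.2%) and in 21.2% of all 27025 symbols with a window. Counted strictly, with the C as the first transcribed base and at least 4 pyrimidines after it, the shares were 23.2% of members and 3.01% of all symbols. Rpl5, Rpl4 and Rplp0 had no such run in the window, which says only that these letters were not found around the annotated start.

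Depth, recovered from the steps of the deposited values, ranged from 1391832 to 5926375 mapped reads (median 4009998), and KD 24 h replicate 6 was the shallowest. The highest value is that of NC 72 h replicate 6, whose reads may be counted at up to 2 times their true number. Replicates 2 and 3 of NC 72 h differed by less than sampling noise (their squared difference was 0.37 of counting noise, against 1.94 for the next of 276 pairs) and were counted as 1 sample, so that NC 72 h had n = 5. By their deviations from the group means the libraries formed 2 clusters. The larger had 16 libraries, and the smaller had 8, of which each group gave 2. The RefSeq entry of Ctcflos was at 0 to 0.62 RPKM in the KD 24 h libraries and 0.18 to 1.38 RPKM in NC 24 h. At 72 h it was at 0 to 0.52 RPKM in KD and 0.85 to 1.75 RPKM in NC. For scale, 1 read on a transcript of 1 kb equals 0.17 to 0.72 RPKM in these libraries, so the values rest on few reads. The 0.17 is from NC 72 h replicate 6 and has the limit given above. Whether this entry holds the gapmer's target was not tested.

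The 8 adipocyte markers summed to 26294 scaled RPKM or more in every sample. The 5 lymphocyte markers were at 0 in all samples, the epithelial markers summed to at most 1.597 and the endothelial markers, Pecam1 and Cdh5 among them, to at most 3.02. Macrophage markers summed to at most 31.7 scaled RPKM, stromal progenitor markers to 380 to 1028, and smooth muscle or pericyte markers to 173 to 879 in KD 24 h against 509 to 1476 in NC 24 h, and to 271 to 373 in KD 72 h against 356 to 1090 in NC 72 h. Of 4 smooth muscle or pericyte genes tested none was called at 24 h by limma and 1, Tagln, was lower at 72 h. All 5 brite markers were called lower at both times. They summed to 328 to 479 scaled RPKM in KD 24 h against 455 to 877 in NC 24 h, and to 381 to 730 in KD 72 h against 1267 to 2093 in NC 72 h. Adipocyte markers summed to 37695 to 51114 in KD 24 h against 49996 to 53779 in NC 24 h, and to 26294 to 36096 in KD 72 h against 36931 to 48534 in NC 72 h, where the sums did not overlap. Of the 8 adipocyte markers 2 were called lower at 24 h and 4 at 72 h by limma, none higher. At each time 7 of the 8 had a fold below 0. In bulk samples fewer cells of a type and less RNA per cell cannot be told apart. The part of these marker changes, and of the libraries' clusters, in the ribosomal protein values below was not tested.

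Levels are given as RPKM (reads scaled to transcript length and to library depth) after division by a trimmed-mean factor per library, called scaled RPKM. Because reads came from transcript 3′ ends and the authors divided by the full entry length, levels of entries of different length are not strictly comparable. The mRNAs of the stalk protein Rplp1 and of Rpl32 stood highest, at 2976 and 2952 scaled RPKM on average, followed by Rpl41, the smallest ribosomal protein, at 1705, and by the 40S proteins Rps20 at 1389, Rps14 at 1296 and Rps9 at 1006. In all, 28 members reached 100 scaled RPKM, 28 lay between 1 and 100, and 20 were under 1. Rpl11 and Rpl28 were listed at 0 in all 24 libraries. The 8 members with most reads, led by Rpl32 (11.0%), Rplp1 (10.2%) and Rpl4 (7.90%), held 57.0% of the reads of all members.

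Levels were set beside how much of each 3′ end is shared with other genes. In the last 300 bases of each member's GENCODE M21 transcript, the share of windows of 50 bases not found in any other gene's transcript was 100% in 23 members and 0% in 4, namely Rpl9, Rpl10, Rpl36a and Rps27, whose levels were 0.0108 to 0.642 scaled RPKM. Where several transcripts matched a member the longest was taken, of 3706 bases for Rps20, and its 3′ end need not be that of the entry measured. With this limit, the median level was 141 scaled RPKM for the 23 members scored as fully unique and 11.1 for the other 53. Across the 76 members the rank correlation of level with the unique share was 0.40, a description only, since the members share libraries and an annotation. Rpl11, Rpl12 and Rpl28 were at 0 or 0.0863 scaled RPKM, and all their windows were unique.

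Several members had a far higher entry at the place of a copy. Entries under a member's symbol that GENCODE M21 assigns to another gene existed for 30 members, 26 of them in genes typed as pseudogenes, and for 16 members such an entry stood above the member's own. In 7 members the copy exceeded 100 scaled RPKM while the RefSeq entry was under 10. Rpl3, which sits at the peptidyl transferase centre, was at 0.433 scaled RPKM against 210 in the entry placed in Rpl3-ps1 (chrX:13202571-13203780). Rpl12 was at 0.0863 against 255 in Gm10275 (chr10:29698746-29699380), and Rpl9 at 0.0108 against 242 in Rpl9-ps6 (chr19:32465865-32466578). How reads were divided between a gene and its copies was not tested, and only changes within an entry are read below.

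**Figure D1:**
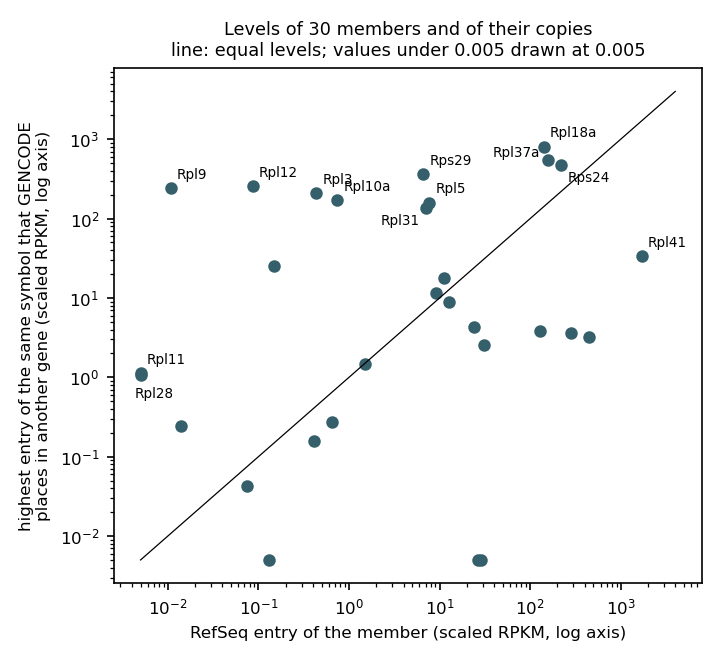
Mean level of the RefSeq entry of 30 members (x axis, scaled RPKM, log axis) against the highest entry of the same symbol that GENCODE M21 places in another gene (y axis, scaled RPKM, log axis); values under 0.005 are drawn at 0.005. The copy lies above the line of equal levels for 16 members, and Rpl9, Rpl12, Rpl3, Rpl10a, Rps29, Rpl5 and Rpl31 have copies over 100 scaled RPKM with a RefSeq entry under 10.

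Taken as a class, ribosomal protein mRNAs held a larger share of the reads in KD than in NC cells at both times. At 24 h the 76 entries took 1.49% ± 0.085 (SD, n = 6) of mapped reads in KD, with a lowest, median and highest of 1.41%, 1.48% and 1.59%, and 1.23% ± 0.114 (n = 6) in NC, with 1.11%, 1.23% and 1.41%. At 72 h KD cells were at 1.502% ± 0.068 (n = 6; 1.41%, 1.51% and 1.58%), and the NC samples were at 1.05%, 1.15%, 1.36%, 1.20% and 1.19%, a mean of 1.19% ± 0.114 (n = 5). At 72 h the scale of mapped reads itself differed between the groups: the median log2 fold of all entries on deposited RPKM was 0.25, against 0.05 at 24 h, and the members' median was 0.34, against 0.25 at 24 h. The groups met at their edges at 24 h, where only NC replicate 5 reached the range of KD, and did not overlap at 72 h. Within the larger cluster the 24 h means were 1.53% in KD and 1.17% in NC, and within the smaller cluster 1.41% and 1.36%. At 72 h they were 1.47% and 1.13% in the larger cluster and 1.56% and 1.28% in the smaller. The ratio of 60S to 40S reads changed little, from 1.79 ± 0.040 in KD 24 h and 1.77 ± 0.048 in NC 24 h to 1.73 ± 0.044 in KD 72 h and 1.72 ± 0.082 in NC 72 h. This share is a sum chosen by name, so it was not tested, and it is on the scale of all mapped reads, which the per-gene tests below do not use.

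**Figure D2:**
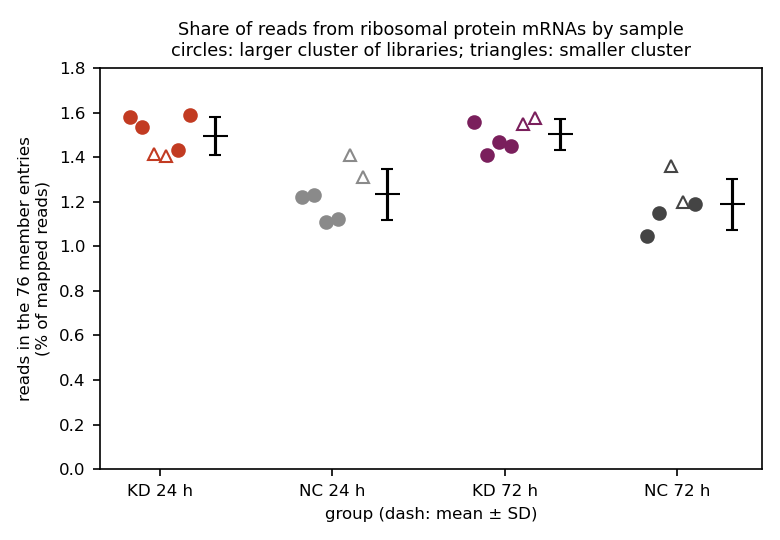
Percent of mapped reads in the 76 member entries (y axis) for every sample in the 4 groups (x axis); circles are libraries of the larger and triangles of the smaller cluster, and dashes with bars are mean ± SD. KD samples sit at 1.41% to 1.59% at 24 h and at 1.41% to 1.58% at 72 h, NC samples at 1.11% to 1.41% and 1.05% to 1.36%.

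Single genes were compared with limma on log2(scaled RPKM + 0.1), with Benjamini-Hochberg adjustment over all entries tested; folds on this scale understate the change of low genes. Of the 76 members, 51 passed the filter on low values in at least 1 comparison and 25 in none. These 25 had levels of 0 to 4.32 scaled RPKM, and Rpl3, Rpl11 and Rps27a, whose protein is made fused to ubiquitin, were among them. Rps27a had 0.586 to 2.24 scaled RPKM in KD 24 h and 0.610 to 2.04 in NC 24 h.

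At 24 h, 9 of 50 members tested were higher in KD and none was lower by limma at an adjusted p under 0.05, with 20 of the 50 at an unadjusted p under 0.05. Over all 51999 entries tested, 22.1% were called, 10.8% higher and 11.2% lower. The members' share of calls, 18.0%, was thus no higher than this background. In a fit of 1 RefSeq entry per gene, 26.3% of 9586 entries and 9 of 50 members were called. The median log2 fold of the members was 0.18, that of all entries −0.02, and 42 of 50 members had a value above 0. The 9 members were Rpl31, Rpl5, Rps15a, Rpl13, Rpl22, Rps14, Rpl13a, Rpl4 and Rps20, 3 of them of the 40S and 6 of the 60S subunit. The groups did not overlap for 4 of the 50 members, all higher in KD, and for 11.1% of all entries, 4.63% higher and 6.44% lower. Rps14, Rpl13a, Rpl4 and Rps20 lie outside the naming rule at 24 h, as does Rpl37 at 72 h, and were named after their values were seen.

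Rpl31, a protein at the mouth of the exit tunnel, had the largest fold, 1.03 ± 0.26 (log2, SE) with an adjusted p of 0.0137 by limma. Its lowest, median and highest levels were 8.25, 10.7 and 18.2 scaled RPKM in KD and 2.37, 5.76 and 7.05 in NC, so the groups did not overlap. This rests on 29.0 reads per library on average. The entry placed in Rpl31-ps8, at 136 scaled RPKM, had a log2 fold of 0.33 ± 0.12 (adjusted p 0.0686 by limma). That entry has 378 bases, and the GENCODE transcript matched to Rpl31 has 1049. Whether the larger fold holds for all Rpl31 mRNA was not tested.

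Rpl13 had 134, 140 and 201 scaled RPKM in KD (lowest, median, highest) and 89.3, 111 and 121 in NC, a log2 fold of 0.47 ± 0.13 with an adjusted p of 0.0172 by limma. Rps15a had 8.34, 8.98 and 9.37 in KD and 4.68, 6.51 and 7.83 in NC, a log2 fold of 0.47 ± 0.15 (adjusted p 0.0424, limma). In both the groups stood apart. Of the 3′ windows, 16.7% were unique in Rpl13 and all in Rps15a, scored there on a transcript of 5179 bases. Whether the fold of this entry holds for all Rps15a mRNA was not tested. Rpl22, an RNA-binding 60S protein, had 135, 157 and 217 in KD and 106, 127 and 149 in NC, with a log2 fold of 0.38 ± 0.12 and an adjusted p of 0.0413 by limma, and its groups overlapped. Its paralog Rpl22l1 had a log2 fold of 0.06 (adjusted p 0.714, limma).

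Across the 50 members tested at 24 h the rank correlation of log2 fold with level was 0.03. Rps20 had 1470, 1556 and 1766 scaled RPKM in KD and 1133, 1291 and 1445 in NC, without overlap, and Rps14 had 1319, 1426 and 1576 in KD and 956, 1099 and 1348 in NC, with overlap. Their log2 folds were 0.31 ± 0.09 and 0.37 ± 0.10, with adjusted p of 0.0262 and 0.0195 by limma. Rpl13a, known for a second role in silencing inflammatory mRNAs, and Rpl4, which lines the exit tunnel, had log2 folds of 0.36 ± 0.11 and 0.33 ± 0.11, with adjusted p of 0.0269 and 0.0415 by limma and overlapping groups.

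The stalk, by which the 60S subunit recruits translation factors, did not pass the test at 24 h. Rplp0 had 479, 746 and 776 scaled RPKM in KD and 543, 605 and 732 in NC (log2 fold 0.18 ± 0.13, adjusted p 0.319 by limma). The log2 folds of Rplp1 and Rplp2 were 0.19 ± 0.09 and −0.02 ± 0.13, with adjusted p of 0.127 and 0.934 by limma. Rpsa of the 40S subunit, also known as the laminin receptor, was at 0.29 ± 0.12 (adjusted p 0.0998, limma), Rps6, the substrate of the S6 kinases, at −0.07 ± 0.20 (adjusted p 0.834, limma) and Rpl41 at 0.12 ± 0.09 (adjusted p 0.375, limma). Their groups overlapped.

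KD 24 h replicate 6, the shallowest library, stood apart in several members and in both directions. It was the highest of its group in Rpl31, Rpl13, Rpl22, Rps20 and Rpsa and the lowest in Rplp0, Rpl4, Rpl13a, Rpl15 and Rpl7. Without it, 16 members were called at 24 h, all higher in KD, Rplp0 among them, and 25.2% of all entries were called. Leaving out another library lowered the count to 3 (KD 24 h replicate 1, NC 24 h replicate 2 or NC 24 h replicate 4). It was 4 without KD 24 h replicate 2. It was 5 without KD 24 h replicate 5, NC 24 h replicate 1 or NC 24 h replicate 3. In these fits 16.6% to 17.4% of all entries were called, beside 22.1% in the main fit. Rpl13, Rpl31 and Rps14 were called in all 12 fits that left out 1 library. The other calls at 24 h were lost in some of the 12: Rps20 was called in 8, Rpl13a in 6, Rpl22 and Rpl5 in 4, and Rpl4 and Rps15a in 3. In the larger cluster alone 9 members were higher and 1, Rpl15, lower, and 24.4% of all entries were called. In the smaller cluster alone, with 2 libraries a group, Rpl4 was called, beside 3.09% of all entries.

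**Figure D3:**
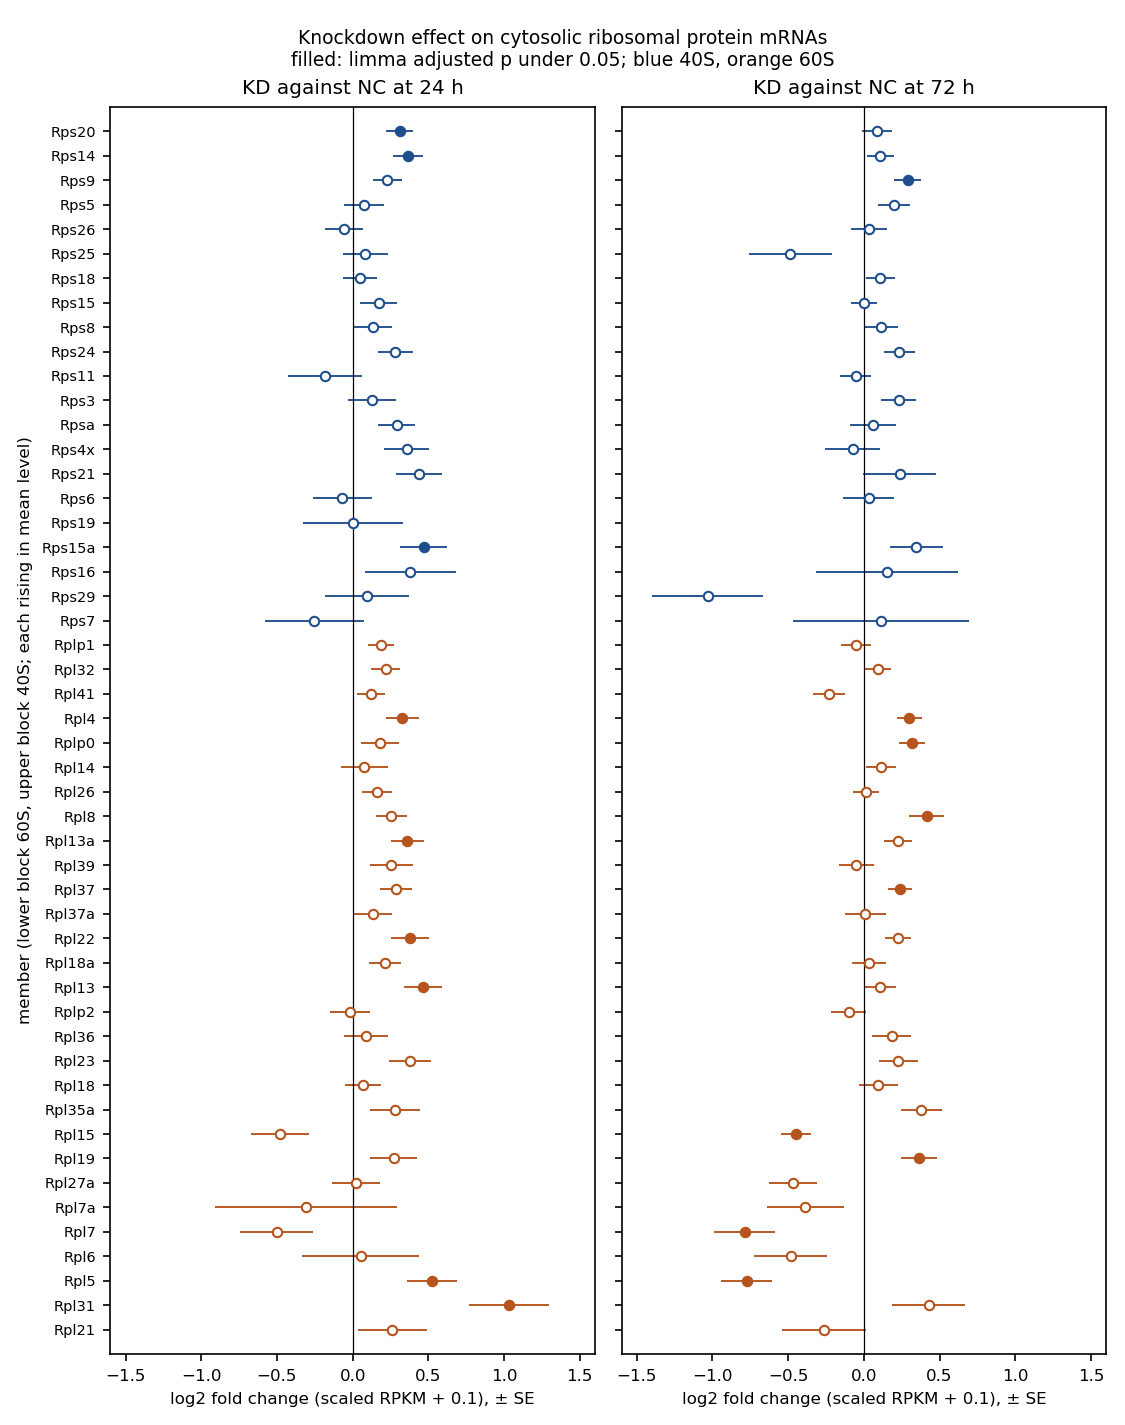
Log2 fold change (x axis, scaled RPKM + 0.1, ± SE) of KD against NC at 24 h (left) and 72 h (right) for the members tested (y axis, 40S in blue above, 60S in orange below, each ordered by mean level); filled points have a limma adjusted p under 0.05. Most points lie right of 0 at 24 h (42 of 50), and at 72 h the 3 filled points left of 0 are Rpl7, Rpl5 and Rpl15.

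At 72 h, 6 of 49 members tested were higher in KD and 3 were lower by limma, a share of 18.4% beside 22.2% of all 54440 entries, of which 10.6% were higher and 11.5% lower. In a fit of 1 RefSeq entry per gene, 25.6% of 10066 entries and 10 of 49 members were called. The members' median log2 fold was 0.10 and that of all entries 0.02. The groups did not overlap for 4 members, Rplp0 and Rpl37 higher and Rpl5 and Rpl15 lower, and for 13.7% of all entries, 6.31% higher and 7.43% lower. Of the 9 calls 8 fell in the 60S subunit, of which 29 members were tested, and 1 in the 40S subunit, of which 20 were tested; the difference between the subunits was not tested.

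Among the members that rose, Rplp0 had 591, 645 and 731 scaled RPKM in KD (lowest, median, highest) and 456, 562, 568, 494 and 534 in NC, a log2 fold of 0.32 ± 0.09 with an adjusted p of 0.0178 by limma. Rpl8, a 60S protein next to the catalytic centre, had 434, 570 and 637 in KD and 396, 461, 402, 335 and 464 in NC, a log2 fold of 0.41 ± 0.12 (adjusted p 0.0213, limma). Rpl4 had 779, 843 and 870 in KD and 635, 672, 810, 673 and 615 in NC, a log2 fold of 0.30 ± 0.09 (adjusted p 0.0213, limma). Only for Rplp0 did the groups stay apart. The 2 samples of KD 72 h in the smaller cluster were the lowest 2 of their group for Rpl8. Rpl4 was the one member called higher at both times.

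Rps9, a 40S protein near the decoding site, had 914, 1035 and 1105 scaled RPKM in KD and 767, 882, 935, 861 and 754 in NC, a log2 fold of 0.29 ± 0.09 (adjusted p 0.0304, limma). Rpl19 had 23.7, 31.6 and 35.7 in KD and 23.7, 21.6, 26.5, 23.9 and 23.9 in NC, a log2 fold of 0.36 ± 0.12 (adjusted p 0.0446, limma). Rpl37 had 211, 223 and 230 in KD and 181, 190, 208, 189 and 170 in NC, a log2 fold of 0.24 ± 0.08 (adjusted p 0.0414, limma). The groups of Rpl37 did not overlap and those of Rps9 and Rpl19 did.

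Rpl7, Rpl5 and Rpl15 fell. Rpl7 had 4.69, 7.73 and 10.6 scaled RPKM in KD and 10.9, 15.3, 10.05, 14.3 and 15.6 in NC, a log2 fold of −0.79 ± 0.20 (adjusted p 0.012, limma). Rpl15, whose start window holds the longest run shown, had 22.4, 24.2 and 26.2 in KD and 34.4, 30.3, 36.1, 29.5 and 35.1 in NC, a log2 fold of −0.45 ± 0.10 (adjusted p 0.00515, limma). The groups overlapped slightly for Rpl7 and not at all for Rpl15. At 24 h their log2 folds were −0.50 ± 0.24 and −0.48 ± 0.19, with adjusted p of 0.144 and 0.0863 by limma. Rpl15 had 213 reads per library on average and all its 3′ windows were unique, whereas Rpl7 had 44.2 reads and 25.9% of its windows unique.

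The other members named did not pass the test at 72 h. The log2 folds were −0.05 ± 0.10 for Rplp1, −0.10 ± 0.12 for Rplp2, 0.06 ± 0.15 for Rpsa, 0.03 ± 0.17 for Rps6 and −0.23 ± 0.11 for Rpl41, with adjusted p of 0.758, 0.575, 0.822, 0.913 and 0.14 by limma. Of the members called at 24 h, Rpl31, Rpl13, Rps15a, Rpl22, Rps14, Rpl13a and Rps20 had log2 folds of 0.43, 0.11, 0.35, 0.22, 0.11, 0.23 and 0.09 at 72 h.

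The number of members called at 72 h depends on the scaling. On the deposited RPKM without scaling, 22 members were higher and 2 lower, and 29.9% of all entries were called. Of the calls among all entries 80.9% were higher (48.0% after scaling), and the median of all entries was 0.25 on the log2 scale. The members' median was then 0.34. At 24 h the deposited scale gave 16 members higher and none lower, with 22.6% of all entries called. Without NC 72 h replicate 1, 5 members and 18.3% of all entries were called at 72 h. NC 72 h replicate 6 stood apart in Rps19, at 171 scaled RPKM against 2.89 to 4.25 in the other NC 72 h samples. It was also high in the copy entries placed in Rps23-ps1 (110 against 17.1 to 25.2) and Gm7536 (49.0 against 2.64 to 3.77). Leaving this sample out gave 2 members higher and 4 lower, with 18.9% of all entries called. In the larger cluster 10 were higher and 3 lower, and in the smaller cluster none was higher and 3, Rpl6, Rps16 and Rps25, were lower. Of all entries 24.5% were called in the larger and 10.2% in the smaller cluster. Rpl7, Rpl5 and Rpl15 were called in all 11 fits that left out 1 sample, Rplp0 and Rpl8 in 10, Rpl4 in 9, Rps9 in 6, Rpl37 in 3 and Rpl19 in 2. Without the filter on low values the 6 higher calls were lost and the 3 lower ones stayed, with 7.92% of all entries called. With the replicate block 15.1% of all entries and 5 members were called, Rpl15, Rpl35a, Rpl5, Rpl6 and Rpl7. Of these 1 was higher and 4 were lower, and none was among the 6 higher calls.

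**Figure D4:**
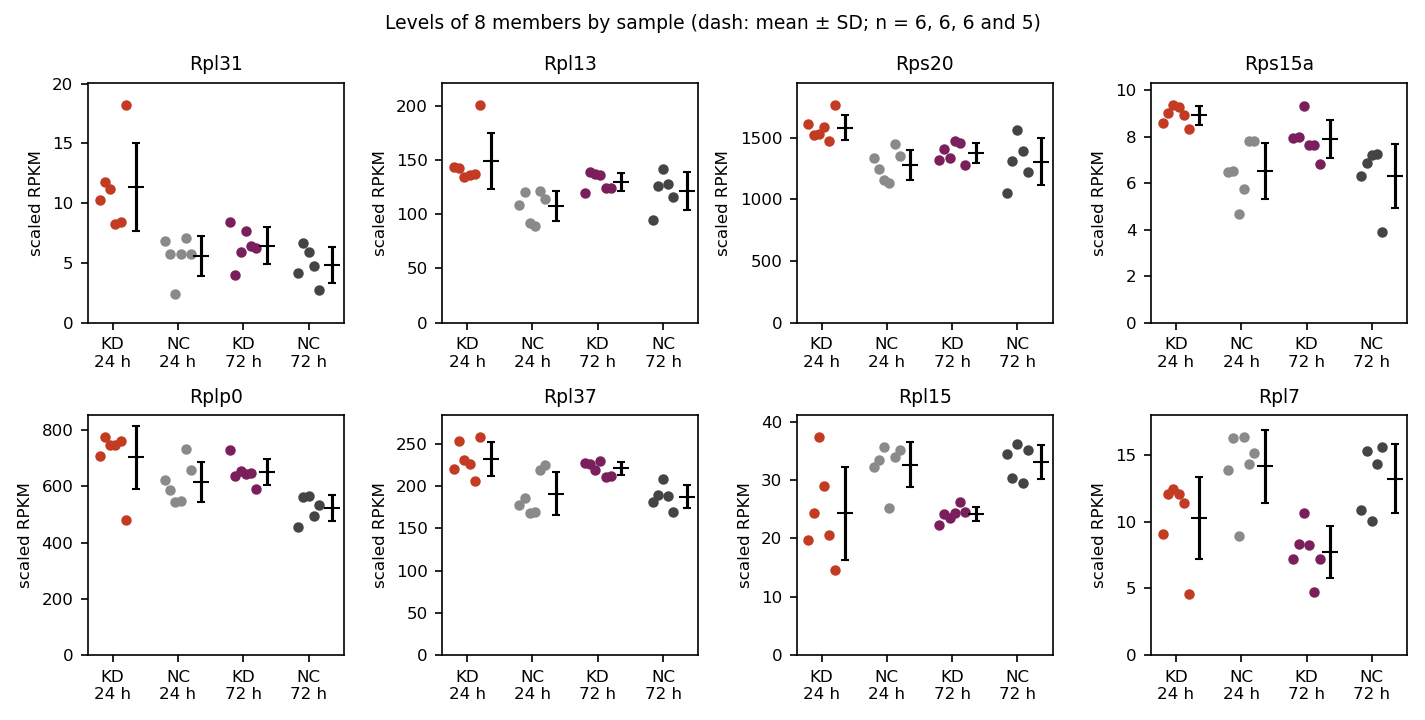
Levels of 8 members in scaled RPKM (y axes, from 0) for every sample of the 4 groups (x axes); dashes with bars are mean ± SD (n = 6, 6, 6 and 5). KD 24 h lies above NC 24 h without overlap in Rpl31, Rpl13, Rps20 and Rps15a, KD 72 h above NC 72 h in Rplp0 and Rpl37, and KD 72 h below NC 72 h in Rpl15.

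Rpl5 was the member whose response differed between the times. Together with Rpl11 and the 5S rRNA it forms a particle that joins the 60S subunit and, when free, binds Mdm2, the ubiquitin ligase of p53. Its RefSeq entry had 7.57, 10.6 and 15.2 scaled RPKM in KD 24 h (lowest, median, highest) and 6.87, 7.34 and 8.24 in NC 24 h. At 72 h it had 3.71, 4.16 and 5.50 in KD and 8.65, 6.29, 7.97, 8.83 and 6.51 in NC. At 24 h KD was higher with overlap, and at 72 h every KD sample was below every NC sample. The log2 fold was 0.52 ± 0.17 at 24 h (adjusted p 0.0343, limma) and −0.77 ± 0.17 at 72 h (adjusted p 0.00506, limma). The 24 h call held in 4 of 12 fits that left out 1 library, and was lost without the filter on low values (adjusted p 0.0636, limma) and with the replicate block (adjusted p 0.0707, limma). The difference between the times, tested as an interaction, was −1.30 ± 0.23 (adjusted p 0.0125, limma). It was the one call among 51 members tested, with 0.182% of all 59406 entries called (0.0656% lower, 0.116% higher) and 5 members at an unadjusted p under 0.05.

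The difference held in direction within each cluster of libraries, at −1.26 in the larger and −1.33 in the smaller, with adjusted p of 0.0627 and 0.0535 by limma, neither past the threshold. In the smaller cluster the one member called was Rps25. The Rpl5 difference was called in all 23 fits that left out 1 sample, at −1.40 to −1.20. In NC cells alone Rpl5 was at a log2 fold of 0.02 ± 0.14 between 72 h and 24 h. The call belongs to this entry and not to every entry under the symbol. The RefSeq entry has a recovered length of 2019 bases, its last 300 bases were unique, and it held 62.2 reads per library. Of the 14 other entries under the symbol 6, of 467 to 1019 bases, stood at 149 to 304 scaled RPKM and 8 at 0 to 3.79. Among the former, the one placed in the pseudogene Gm15500 (chr7:114705270-114706163) had 167, 174 and 195 scaled RPKM in KD 24 h and 127, 145 and 179 in NC 24 h. At 72 h that entry had 120, 158 and 167 in KD and 123, 138, 135, 137 and 256 in NC. The 256 was NC 72 h replicate 6. Its log2 folds were 0.25 ± 0.10 at 24 h and −0.01 ± 0.17 at 72 h, with adjusted p of 0.0957 and 0.962 by limma. The difference was −0.26 ± 0.20 (adjusted p 0.644, limma), and this value and the 72 h fold include that high sample. Whether the change lies in all Rpl5 mRNA or in the form with the long 3′ end was not tested.

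**Figure D5:**
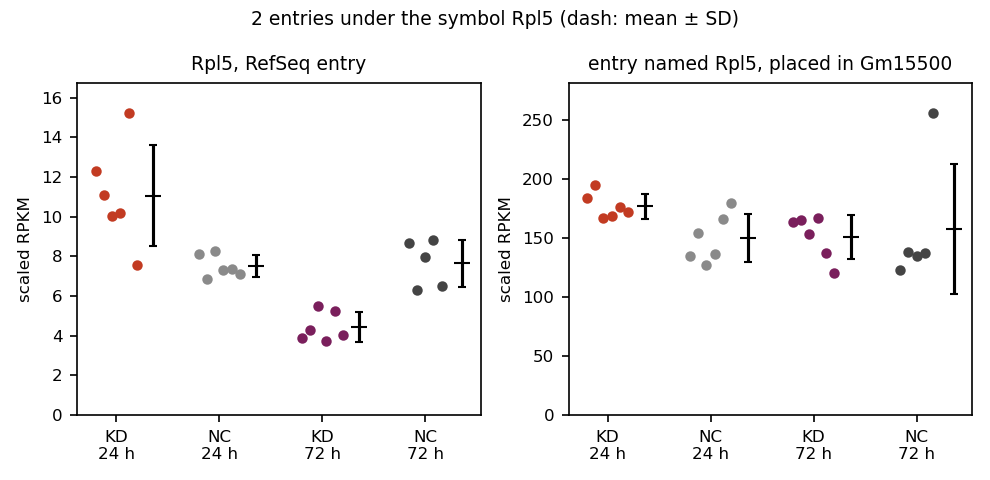
Levels in scaled RPKM (y axes, from 0) of the RefSeq entry of Rpl5 (left) and of the entry under the same symbol placed in Gm15500 (right) for every sample of the 4 groups (x axes); dashes with bars are mean ± SD. The RefSeq entry is at 3.71 to 5.50 in KD 72 h and 6.29 to 8.83 in NC 72 h, while the groups of the other entry overlap at both times.

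In NC cells no member was called between 72 h and 24 h by limma, with 6 of 49 members tested at an unadjusted p under 0.05 and 9.14% of all 52829 entries called (4.51% higher, 4.63% lower). The members' median log2 fold was −0.04. Rplp0, Rps9 and Rpl8 each had a log2 fold of −0.23 between the times, with adjusted p of 0.122, 0.112 and 0.134 by limma, and Rplp1 had −0.19 ± 0.09 (adjusted p 0.216, limma). The 8 pseudogene entries tested, of 26 with a pseudogene as their own symbol, were called in no comparison. Of the copy entries under members' symbols described above, that in Rps24-ps3 was higher at 72 h (log2 fold 0.38, adjusted p 0.0402 by limma). The one in Rps19-ps6 was lower at 72 h (log2 fold −0.62, adjusted p 0.0244 by limma). Counting all 687 entries with a member's symbol, 57 of 342 tested were higher and none lower at 24 h (10.8% and 11.2% of all entries), and 42 of 346 were higher and 10 lower at 72 h (10.6% and 11.5% of all entries); entries of 1 gene share reads.

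Responses were also set beside the start windows. Members with a pyrimidine run near the start had a median log2 fold of 0.15 at 24 h (18 tested, 3 called higher) and of 0.11 at 72 h (2 higher, 1 lower). Members with a window but no run had 0.18 (19 tested, 4 higher) and 0.08 (18 tested, 3 higher, 1 lower). These are values side by side, with no test.

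Genes that serve the ribosome were read from lists, 1 RefSeq entry each. As background, 22.1% and 22.2% of all entries were called at 24 h and 72 h. In a fit of 1 RefSeq entry per gene the shares were 26.3% and 25.6%. Of ribosome assembly factors, 24 of 56 tested were higher and 2 lower at 24 h, and 22 of 55 higher and none lower at 72 h, with median log2 folds of 0.43 and 0.44. Nop56, of the box C/D snoRNA particle, had log2 folds of 1.38 at 24 h and 0.97 at 72 h, and the nucleolar GTPase Gnl3 1.20 and 0.96. All 4 of these values were called by limma, with adjusted p of at most 0.00532. Of initiation factors 13 of 23 were higher at 24 h and 7 at 72 h, none lower, with medians of 0.42 and 0.14; Eif5 had 0.88 and 0.59 and Eif3g 1.01 and 1.04. Of elongation factors and other mRNAs with the tract, 6 of 18 were higher at 24 h and 7 at 72 h, none lower, with medians of 0.23 and 0.19; Nap1l1 had 1.18 and 1.09, the nucleolar chaperone Npm1 0.78 and 0.62, and Pabpc1, the poly(A)-binding protein, 0.67 and 0.47. Beside these the ribosomal proteins' own medians were 0.18 and 0.10.

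Of the genes for RNA polymerase I, which makes ribosomal RNA, 2 of 16 were higher and 2 lower at 24 h (Taf1b fell by 1.19 on the log2 scale) and 4 of 17 higher at 72 h. Among mTORC1 and LARP1 regulators 2 were higher and 3 lower of 14 at 24 h, and 2 higher and 1 lower of 14 at 72 h. Eif4ebp1, an inhibitor of cap-dependent initiation, was lower at both times (log2 folds −0.53 and −0.53), and Myc, a driver of ribosomal genes, was higher (0.67 and 0.63). In the list around the 5S particle and Mdm2, 5 of 7 were higher at 24 h, and 4 higher and 1 lower, Rpl5, at 72 h. Mdm2 had log2 folds of 1.19 ± 0.15 and 1.06 ± 0.14, Trp53 0.61 and 0.65, and Cdkn1a 0.44 and 0.87, all called by limma. Of snoRNA host genes 2 of 6 were higher at each time; Snhg8 had log2 folds of 0.96 and 0.89.

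Ribosomal proteins that the naming rule left out were tested for 7 genes. Of these 7 none was called at 24 h, and 2 fell at 72 h: Rpl39l, a paralog of Rpl39 best known from testis, by 0.61 and Rpl22l1 by 0.49 on the log2 scale, with adjusted p of 0.000476 and 0.0205 by limma. Rpl39 itself, a member, had log2 folds of 0.25 ± 0.14 at 24 h and −0.05 ± 0.11 at 72 h.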

How the data were processed

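RNA-seq libraries were made with a 3′ protocol from 24 samples in 4 groups of 6. Per the study's methods the tags were matched to NCBI reference sequences within the Genomatix suite, and the authors deposited RPKM per transcript entry, of RefSeq, Ensembl and GenBank together. That the values are RPKM is stated for a sister data set and was read here from their steps. The build, how tags that match several places were placed, and whether strand was used are not given in the sources used here. Every sample column was used (0 were left out). Because the values are RPKM and not counts, no count model was the main test.

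From the deposited RPKM, read numbers were recovered from the steps between values (94.6% to 95.3% whole per library), for depth and for the filter only. In NC 72 h replicate 6 only 21.1% of read numbers from 1 to 20 were odd (56.2% to 56.7% in replicate 6 of the other groups), so its reads may be counted at up to 2 times their true number. RPKM were scaled by trimmed means (30% of ratios and 5% of levels trimmed) and tested with limma 3.58.1 (R 4.3.3) on log2(value + 0.1), with a minimum equivalent to 10 reads in as many samples as the smaller group and 15 reads in all. Benjamini-Hochberg adjustment covered all entries tested. On simulated data limma recovered 93% of genes changed by a log2 fold of 1 at 24 h (9699 genes) and 97% at 72 h (9939 genes). The simulation had log2 folds of 1 and 2 only, 1 fixed spread, no clusters and all 6 libraries of NC 72 h. It therefore does not give the recovery of the smaller folds of most members called.

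Groups came from the sample labels. Named members are the 5 largest rises and falls among those called in a comparison, with Rpl5, Rpl11, the stalk proteins, Rpsa, Rpl3, Rps6, Rps27a and Rpl41, and up to 4 genes per other list by smallest p. Members and lists were chosen with earlier results of these data known. Alternatives were a pseudocount of 1, no scaling, median-of-ratios scaling, no filter, a replicate block, RefSeq entries alone, voom, 24 separate libraries, each cluster alone, Ensembl entries and leaving out each library. Depth limits cover counting error only.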

Additional observations from a re-analysis of the deposited data

Results flagged for a closer look

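In 76 groups of values from 20 named members, 7 held a sample set apart from the rest of its group, where chance alone gives about 1 in 20. KD 24 h replicate 6, the shallowest library, accounted for 3. It was highest in Rpl13, at 201 scaled RPKM with the next sample at 144, and in Rpl31, at 18.2 with the next at 11.8, and it was lowest in Rplp0, at 479 with the next at 707. NC 24 h replicate 3 was lowest in Rpl31, at 2.37 with the next at 5.74, and in Rpl7, at 8.91 with the next at 13.9. NC 24 h replicate 4 was lowest in Rpl15, at 25.2 with the next at 32.2. NC 72 h replicate 6 was lowest in Rps15a, at 3.92 with the next at 6.31.

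The effect of the knockdown on the RefSeq entry of Rpl5 differed between the times by −1.30 on the log2 scale, by the interaction term of limma. The cause was not tested.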

How the results depend on the processing

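With 9 members called at 24 h, 9 at 72 h, 1 in the difference between times and 0 in NC over time, no named member's called fold changed sign under the alternatives run, but the members' median did in 3 comparisons. At 72 h it was 0.10 and −0.08 in the smaller cluster. For the difference between times it was −0.13 and 0.04 on deposited RPKM. In NC over time it was −0.04, 0.01 without the filter and 0.01 with Ensembl entries, and it was also just above 0 without NC 24 h replicate 5 or NC 72 h replicate 6. On the deposited RPKM without scaling the counts were 16 at 24 h and 24 at 72 h, with 22.6% and 29.9% of all entries called. Without the filter on low values the counts were 2 and 3, the 3 all lower, with 7.06% and 7.92% of all entries called. In the smaller cluster alone the counts were 1 and 3, the 3 again all lower, with 3.09% and 10.2% of all entries called. In the larger cluster alone the difference between times gave 0 and NC over time 2. With the Ensembl entry of each member they were 5 at 24 h, 0 for the difference between times and 3 in NC over time. Leaving out 1 library gave 3 to 16 at 24 h, 5 to 11 at 72 h, 1 in every case for the difference and 0 to 1 in NC over time, where Rpl6 was called without NC 24 h replicate 6. In the same fits 16.6% to 26.0% of all entries were called at 24 h and 18.3% to 22.5% at 72 h. Replicate numbers did not pair the samples (correlations of −0.17 to 0.15 at 24 h and −0.11 to 0.14 at 72 h). With the replicate block 2 members were called at 24 h, Rpl13 and Rpl31. At 72 h the block gave 5 (1 higher, 4 lower), without any of the 6 higher calls of the main fit. Rpl5 kept its difference at −1.32. Over all entries the block gave 8218 calls at 72 h (12066 without it), 2890 in NC over time (4827) and 28 for the difference (108), which was 774 on deposited RPKM, 745 in the larger and 1918 in the smaller cluster, 242 with a pseudocount of 1, 185 with 24 separate libraries and 54 to 163 with 1 library left out. The smaller cluster gave 1635 calls at 24 h (11478), 5717 at 72 h and 1711 in NC over time. The causes were not tested. Few reads limit Rpl31 and Rpl7, and 25 members were below the filter.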
